A study of Mus musculus with 4 samples.

Results

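B and T lymphocyte genes were examined in whole trachea and whole oviduct of mice that were wild type (WT) or labelled null for Gemc1, the gene now called Gmnc, whose product drives precursor cells to become multiciliated. The set holds 31 genes that were chosen by name from textbook roles in B cells, T cells and natural killer (NK) cells. The choice was made with earlier results of these data known, so it is not independent of them. Of these, 29 were measured by name among 30560 genes. The probe set listed for Cd27 also lists a microRNA gene, and no listed probe set was found for Lck, a T cell kinase, so neither is reported. The measured genes were grouped as 10 B cell genes, 13 T cell genes, 2 NK and cytotoxic genes and 4 genes shared by lymphocytes. Each of the 4 groups has a single Affymetrix array. Trachea was taken from males aged 39 days, WT for 1 array and Gemc1 null by label for the other. Oviduct was taken from females aged 65 days, split in the same way. All mice were on a mixed C57BL/6 x 129 background, none was treated, and the tissue was frozen fresh after dissection. The part of Gmnc deleted in the null mice, and whether RNA of several mice was pooled, remain unstated in the labels. Tissue, sex and age differ together between the trachea and oviduct arrays and cannot be told apart.

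B cells and T cells recognise antigen through receptors that cannot signal by themselves. In B cells the membrane immunoglobulin relies on Cd79a and Cd79b, and in T cells the antigen receptor relies on the Cd3 chains and on Cd247, the zeta chain. Kinases such as Zap70 then relay the signal, and coreceptors such as Cr2, Cd4 and Cd8 set its strength. In a mouse airway at rest such cells sit scattered in the mucosa, whereas in lymph nodes and mucosal lymphoid aggregates they are packed in follicles and T cell zones that are held together by chemokines such as Cxcl13 and Ccl19. The arrays measured whole dissected tissue, so fewer lymphocytes and less lymphocyte RNA per cell cannot be told apart anywhere below.

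Promoter sequence is shown for 4 genes because the members of each class were lower together on the arrays. RefSeq promoter windows on build GRCm38.p6, from 250 bases before to 50 after a gene's start, were matched by symbol for 21 of the 29 measured genes, with 26 windows in all. The 250 bases before the start are printed for Cd79a (chr7:24897247-24897496, plus strand) and Cd22 (chr7:30879029-30879278, minus strand) as B cell genes, and for Cd3e (chr9:45009612-45009861, minus strand) and Il7r (chr15:9529877-9530126, minus strand) as T cell genes. Capitals mark matches, on either strand, to AGGAAG, the core of many Ets factor sites, or to TCCCNNGGG, the form bound by Ebf factors.
Cd79a: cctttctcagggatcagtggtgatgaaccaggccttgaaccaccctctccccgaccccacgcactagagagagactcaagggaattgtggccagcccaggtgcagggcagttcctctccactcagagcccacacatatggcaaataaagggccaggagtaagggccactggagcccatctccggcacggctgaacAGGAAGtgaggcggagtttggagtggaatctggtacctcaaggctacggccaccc
Cd22: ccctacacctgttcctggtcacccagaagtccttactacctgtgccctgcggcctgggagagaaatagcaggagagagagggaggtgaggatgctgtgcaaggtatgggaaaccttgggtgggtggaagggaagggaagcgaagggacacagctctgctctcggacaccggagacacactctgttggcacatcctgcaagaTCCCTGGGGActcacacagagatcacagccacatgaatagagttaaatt
Cd3e: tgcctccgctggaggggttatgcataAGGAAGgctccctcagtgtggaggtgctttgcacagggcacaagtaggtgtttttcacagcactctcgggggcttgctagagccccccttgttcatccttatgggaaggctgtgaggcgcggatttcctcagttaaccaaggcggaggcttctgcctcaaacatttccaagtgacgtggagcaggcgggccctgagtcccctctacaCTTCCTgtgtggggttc
Il7r: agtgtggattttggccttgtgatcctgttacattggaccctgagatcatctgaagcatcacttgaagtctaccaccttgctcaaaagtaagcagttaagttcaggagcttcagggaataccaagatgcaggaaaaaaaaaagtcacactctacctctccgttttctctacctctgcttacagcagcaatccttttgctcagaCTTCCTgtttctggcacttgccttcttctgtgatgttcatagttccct
The 10 capitals in Cd22 are 2 overlapping matches on opposite strands. Over all 300-base windows AGGAAG was found in 16 of the 26 member windows, beside 35.4% of all 32851 promoter windows. By gene, it was found in 6 of 8 T cell genes, 3 of 8 B cell genes, 3 of 3 shared genes and 1 of 2 NK and cytotoxic genes. TCCCNNGGG was found in 1 of 26 member windows and in 6.56% of all windows. The E-box CAGCTG was in 4 member windows (16.3% of all) and the Runx form TGTGGTT in 2 (5.27% of all). The octamer ATGCAAAT, which the Pou2af1 protein helps to read, was in 0 member windows and 1.74% of all. The longer Ets form CCGGAAGT was in 0 and 3.89%. A match is a description of letters and not of a bound site. Zap70 and Fcer2a each have 3 windows and Ptprc has 2, so the windows are not all of different genes.

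All levels are log2 signals after robust multi-array averaging (RMA), and a genotype difference is the level on the null-labelled array less that on the WT array of the same tissue. With 1 array per group there is no replicate, no error and no test within a tissue, so precision is limited by the number of arrays. The median over all probe sets lay between 5.91 and 6.00 on the 4 arrays, and the median of the 5222 negative-control probe sets between 5.74 and 5.98. Negative controls spread widely, with a 95th percentile of 8.70 to 8.87, so their median is a guide to background and not a detection limit. The targeted gene Gmnc stood at 5.90 in WT trachea and 4.63 in null-labelled trachea, both below the negative-control median of their array, so the trachea pair gives no check of the labels. In oviduct it stood at 6.11 in the WT tissue, against 8.86 on the null-labelled array, the reverse of a loss of its RNA. Whether its probe set covers the deleted part of Gmnc is not known, so this reading does not settle that label either way. The arrays are therefore called by their labels, and each direction rests on them. Defining genes matched the tissue labels in part. The oviductal glycoprotein Ovgp1 read 12.79 and 12.84 in oviduct but 6.45 and 6.56 in trachea, and the airway secretory gene Bpifa1 read 12.99 in WT trachea. Bpifa1 was at 6.02 on the null-labelled trachea array and at 4.68 to 4.93 on the oviduct arrays. The secretory gene Scgb1a1 stood at 12.74 in WT trachea and 8.39 in null-labelled trachea, and the basal cell keratin Krt5 at 9.52 and 12.54.

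Lymphocyte genes were high on 1 array, that of WT trachea, and low on the other 3. The null-labelled trachea array was lower than WT in 29 of 29 measured members and at least 2-fold lower in 27, and its levels were close to those of both oviduct arrays. On measured levels the median difference in trachea was -4.05 over the B cell genes and -2.43 over the T cell genes. It was -2.83 over the shared genes and -2.13 over the pair of NK and cytotoxic genes. With levels below an array's negative-control median set to it, these medians were -3.47, -2.26, -2.83 and -1.63. Across all genes that passed the level filter in trachea, 7.7% were at least 2-fold lower and the median difference was 0.03. The filter asked for a signal at or above the array's median on at least 1 of the 2 arrays. All 29 measured members passed it, but 15 of them did so through the WT array alone, and a gene that passes in that way had to differ to some degree. The counts of members are therefore given over all that were measured.

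**Figure D1:**
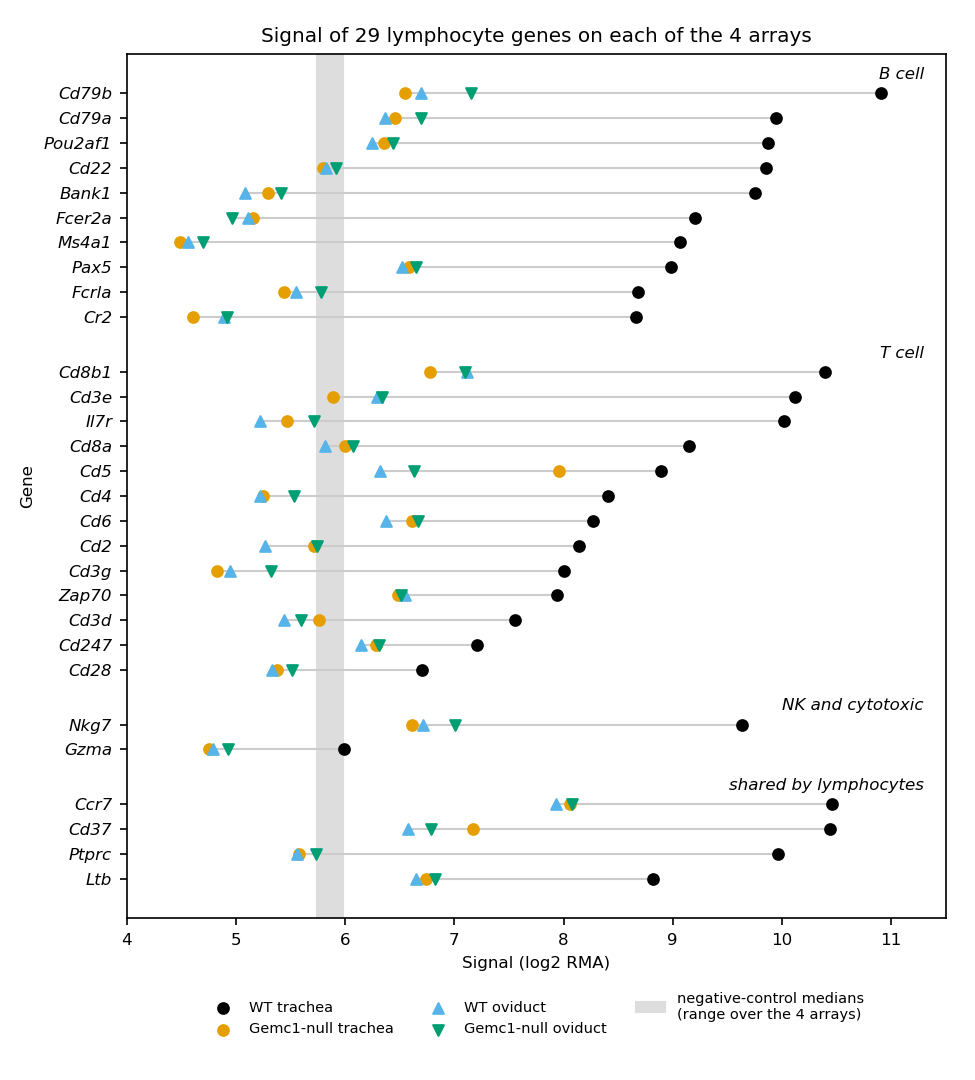
Signal (log2 RMA, x axis) of the 29 measured lymphocyte genes on each of the 4 arrays, 1 symbol per array, with genes grouped by class and a grey band for the range of the negative-control medians (5.74 to 5.98). The WT trachea symbol is the rightmost for every gene, and for 26 of the 29 genes the other 3 arrays lie within 0.5 of each other.

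The B cell genes had the lowest class median in trachea. Among the receptor chains, Cd79a stood at 9.95 on the WT trachea array, 6.46 on the null-labelled trachea array, 6.37 on the WT oviduct array and 6.70 on the null-labelled oviduct array. It was thus 11.2-fold lower in trachea, with the 3 other arrays close together. Its partner Cd79b stood at 10.90 and 6.55 in trachea and at 6.69 and 7.15 in oviduct, 20.5-fold lower in trachea. Cd79b also had the widest gap between the oviduct arrays among the B cell genes, 0.46. Of the surface molecules, Ms4a1 (the Cd20 antigen of mature B cells) read 9.07 and 4.49 in trachea and 4.56 and 4.70 in oviduct. Where the null-labelled level fell short of its array's negative-control median, as here, that median takes the place of the measured level and the fold is a lower bound: Ms4a1 was at least 10.004-fold lower. Cd22, an inhibitory receptor of B cells that binds sialic acid, read 9.85 and 5.80 in trachea and 5.83 and 5.91 in oviduct, 16.6-fold lower in trachea. The low affinity IgE receptor gene Fcer2a (Cd23) read 9.20 and 5.15 in trachea and 5.11 and 4.96 in oviduct, at least 11.0-fold lower in trachea. Cr2, the complement receptor that lowers the threshold of B cell activation, read 8.67 and 4.61 in trachea and 4.89 and 4.91 in oviduct, at least 7.59-fold lower in trachea. Cr2 and Fcer2a mark mature follicular and marginal zone B cells, and Cr2 is also made by follicular dendritic cells. A second probe set for Cr2 differed by -5.11 and 0.30 in the same tissues, beside -4.06 and 0.02 for the probe set used.

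Signalling and nuclear genes of B cells followed the same order. Bank1, a scaffold of B cell receptor signalling, read 9.76 and 5.30 in trachea and 5.09 and 5.41 in oviduct, at least 16.1-fold lower in trachea. Fcrla, an Fc receptor-like protein kept inside B cells, read 8.68 and 5.44 in trachea and 5.55 and 5.78 in oviduct, at least 7.67-fold lower. Pou2af1, the coactivator of octamer-binding factors, read 9.87 and 6.36 in trachea and 6.24 and 6.44 in oviduct, 11.4-fold lower. Pax5, the transcription factor that commits cells to the B lineage, had the smallest B cell difference. It read 8.99 and 6.58 in trachea and 6.52 and 6.65 in oviduct, 5.29-fold lower in trachea. For the 5 B cell genes with both trachea levels above the negative-control median, the difference ran from -4.36 for Cd79b to -2.40 for Pax5. The other 5 have only a bound, from 7.59-fold for Cr2 to 16.1-fold for Bank1, and have no order beyond it. At these values and bounds 10 of 10 were at least 2-fold lower.

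T cell genes were lower in trachea over a wider range. Of the receptor chains, Cd3e read 10.12 and 5.89 in trachea and 6.29 and 6.34 in oviduct, 18.8-fold lower in trachea. Cd3g read 8.002 and 4.83 in trachea and 4.94 and 5.32 in oviduct, at least 4.78-fold lower. Cd3d read 7.55 and 5.76 in trachea and 5.44 and 5.60 in oviduct, 3.47-fold lower. These 3 genes are neighbours on the chromosome, and their probe sets gave differences of -4.23, -3.17 and -1.80. The zeta chain gene Cd247 read 7.21 and 6.28 in trachea and 6.15 and 6.31 in oviduct, a 1.91-fold difference in trachea that stayed short of 2-fold. The coreceptor of helper T cells, Cd4, read 8.41 and 5.25 in trachea and 5.22 and 5.53 in oviduct, at least 6.35-fold lower in trachea. The chains of the cytotoxic coreceptor, which are also neighbours, were lower together. Cd8a read 9.15 and 6.00 in trachea and 5.82 and 6.07 in oviduct, 8.90-fold lower in trachea. Cd8b1 read 10.39 and 6.78 in trachea and 7.11 and 7.10 in oviduct, 12.3-fold lower. Markers of the helper and the cytotoxic lineage were both high on the WT trachea array alone.

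Among the other T cell genes, Il7r, the receptor for the survival cytokine interleukin 7, read 10.01 and 5.47 in trachea and 5.22 and 5.71 in oviduct. It was at least 19.3-fold lower in trachea. Zap70, the kinase recruited to the zeta chain, read 7.94 and 6.48 in trachea and 6.54 and 6.51 in oviduct, 2.75-fold lower in trachea. The adhesion receptor Cd2 read 8.14 and 5.71 in trachea and 5.27 and 5.74 in oviduct, at least 5.28-fold lower. The costimulatory receptor Cd28 read 6.70 and 5.38 in trachea and 5.33 and 5.51 in oviduct, a bound of 1.95-fold. Cd6, a scavenger-type receptor of T cells, read 8.27 and 6.61 in trachea and 6.38 and 6.67 in oviduct, 3.15-fold lower. Its relative Cd5 stood apart from all other members. It read 8.89 and 7.96 in trachea and 6.32 and 6.63 in oviduct, so that the null-labelled trachea array was 1.91-fold below WT trachea yet 1.33 (log2) above the null-labelled oviduct array. Cd5 and Cd247 were the only measured members short of 2-fold in trachea on the measured levels.

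The pair of NK and cytotoxic genes differed in level and in size. Nkg7, a granule membrane protein of NK and cytotoxic T cells, read 9.64 and 6.61 in trachea and 6.71 and 7.002 in oviduct, 8.12-fold lower in trachea. Gzma, which encodes granzyme A, read 5.99 and 4.76 in trachea and 4.79 and 4.93 in oviduct. Gzma on the WT trachea array was at the level of the negative-control median, and its bound was 1.18-fold. Of the genes shared by lymphocytes, Ptprc (Cd45, the phosphatase of all leukocytes) read 9.96 and 5.57 in trachea and 5.55 and 5.73 in oviduct, at least 18.6-fold lower in trachea. The tetraspanin Cd37 read 10.44 and 7.17 in trachea and 6.58 and 6.78 in oviduct, 9.68-fold lower. Ccr7, the receptor that guides naive lymphocytes and dendritic cells into lymph nodes, read 10.45 and 8.06 in trachea and 7.93 and 8.08 in oviduct, 5.24-fold lower. Ltb, which encodes lymphotoxin beta, a cytokine that organises lymphoid tissue, read 8.82 and 6.74 in trachea and 6.65 and 6.83 in oviduct, 4.23-fold lower.

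Ranked from the lowest trachea difference upward among the 20056 genes that passed the filter there, 18 of the 29 members were among the 200 lowest. B cell genes made up 9 of these 18 and T cell genes 6. Such ranks rest in part on levels below background and on the filter, through which many of these genes passed on the WT array alone. With levels below the negative-control median set to it, 17 members were among the 200 lowest, 9 of them B cell genes and 5 T cell genes. On the null-labelled trachea array 12 members lay below the negative-control median. With those genes taken at their bounds, 25 of 29 members were at least 2-fold lower, and the bounds of the 12 ran from 1.18-fold to 19.3-fold. Over all genes the same floor gave 1387 at least 2-fold lower and 1108 higher in trachea. No member lay below that median on the WT trachea array. With each array centred on its negative controls, 26 members were at least 2-fold lower. That centring moved every trachea difference by 0.24 and turned the split over all genes from 1545 lower and 1272 higher into 1188 lower and 1766 higher.

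The oviduct comparison showed no such difference. There 0 of 29 members were past 2-fold in either direction, beside 2.74% lower and 0.801% higher among the 19602 genes that passed the filter in oviduct. A count of 0 in 29 is near that share over all genes. Differences ran from -0.15 for Fcer2a to 0.49 for Il7r. They were above 0 in 26 of 29 members with a median of 0.18, where 60.2% of all genes were above 0 and their median was 0.05. Of the members, 15 passed the filter in oviduct, and 13 lay below the negative-control median on each oviduct array. With signals below that median set to it, the median difference of the members was 0.02. That value is the gap between the negative-control medians of the oviduct arrays, 5.77 for WT and 5.79 for null-labelled. Every member below background on both arrays takes it, so it says nothing of the lymphocyte genes. By class the medians were 0.17 for B cell, 0.25 for T cell, 0.21 for NK and cytotoxic and 0.18 for shared genes.

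Comparing the tissues within a genotype placed the distinct array. On measured levels WT trachea was at least 2-fold above WT oviduct in 29 of 29 members. Of all genes that passed, 6.52% were (1295, beside 924 lower). Through the WT trachea array alone 15 members passed this filter. Cd28 and Gzma lay below background in WT oviduct, and their bounds of 1.91-fold and 1.16-fold were short of 2-fold. After centring on the negative controls 27 members were at least 2-fold higher, and the counts over all genes became 1015 higher and 1390 lower. The median tissue difference of WT arrays, on measured levels, was 3.90 over the B cell genes and 2.88 over the T cell genes. Between the null-labelled arrays, 1 member, Cd5, was at least 2-fold higher in trachea and 0 were lower, beside 6.82% and 6.08% of all genes. The median over all measured members was -0.11, with a range from -0.60 for Cd79b to 1.33 for Cd5. The null-labelled trachea array lay between the oviduct arrays for 14 members, below both for 11 and above both for 4. Set against the highest of the other 3 arrays, WT trachea was at least 2-fold higher for 27 of 29 members, where 3.59% of the 20876 genes that passed in either tissue were. With levels below the negative-control median set to it, the count was 25 of 29, and the gaps ran from 0.19 for Gzma to 4.22 for Il7r. The share over all genes was not computed with that floor. The comparisons share the WT trachea array, so they are not independent of each other.

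**Figure D2:**
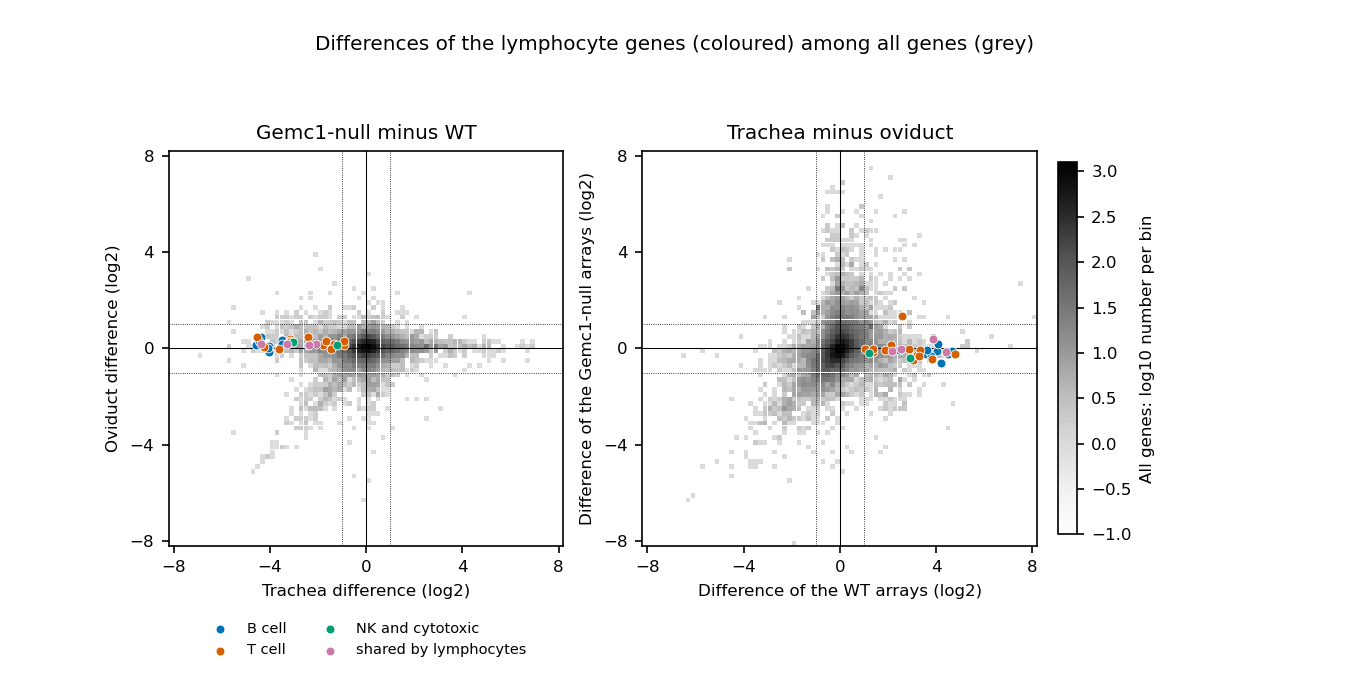
Left, genotype differences (labelled Gemc1-null minus WT, log2) in trachea (x) against oviduct (y); right, trachea minus oviduct on the WT arrays (x) against the null-labelled arrays (y). Grey squares are bins of all genes that passed the filter in either tissue, coloured points are the 29 lymphocyte genes by class, and dotted lines mark 2-fold. The members spread along the x axis and stay near 0 on y, with Cd5 at 1.33 on the right panel as the exception.

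A fit over all 4 arrays asked for a genotype difference shared by both tissues, and it called no gene, whether of lymphocytes or not. The fit used limma, took tissue as a block and has 1 residual degree of freedom, which is the disagreement between the tissues. A gene that differs in trachea alone gets a wide standard error (SE) by this design, so the fit does not bear on the trachea differences of the members. The estimates of the 29 members ran from -2.22 (SE 1.43) for Ms4a1 to -0.31 (SE 0.40) for Cd5, with a median of -1.45. Adjusted p-values (limma, Benjamini-Hochberg over 20876 genes) ran from 0.829 to 0.861 for the members, and the lowest unadjusted p was 0.181 for Fcer2a. Over all genes 0% were called after adjustment, and 3.49% had an unadjusted p under 0.05 (562 lower and 167 higher). Among the members 0 of 29 reached that unadjusted threshold. Whether the genotype difference in trachea differs from that in oviduct could not be tested, since a fit with that term leaves no residual degree of freedom.

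Other genes of lymphocyte signalling and homing were lower on the same array. Counts here are over the measured genes of a list, and a second count, with levels below the negative-control median set to it, follows where it differs. This floor on the counts was chosen after the values were seen. Across all genes that passed the filter in trachea, 7.7% were at least 2-fold lower. Of 13 genes of B cell receptor signalling 11 were past 2-fold and lower in trachea (median -2.14). The inhibitory receptor Cd72 was at -3.20 and the phosphatase Ptpn6 at -2.61, while the kinase Btk, below background on the null-labelled array, was at least 3.80-fold lower. In oviduct 1 gene of this list was lower and 1 higher. Vpreb3, of the B cell surrogate light chain family, read 8.97 and 6.49 in trachea and 9.29 and 6.69 in oviduct. The adaptor Blnk read 9.43 and 7.47 in trachea and 8.06 and 9.31 in oviduct. Of 15 genes of T cell receptor signalling 13 were past 2-fold and lower on the measured levels (median -1.83). With the floor there were 10, because Trat1, Ctla4 and Cd40lg lay below background on both trachea arrays and did not pass the level filter. Gimap3, a GTPase of T cell survival, was at least 11.9-fold lower, and the adaptors Lat and Lcp2 were at -2.87 and -2.55. The exceptions were the kinase Fyn at -0.68 and Prkcq, a kinase that skeletal muscle also makes, at 8.55 in WT trachea and 9.01 in null-labelled trachea. Of 11 lymphoid transcription factors 8 were lower (median -1.73), with Spib at -3.60, Ikzf1 at -3.38 and Ikzf3 at least 12.1-fold lower. The exceptions were Ebf1 at -0.56, Bcl6 at 0.08 and Bcl11b at 0.12. Of 10 homing receptors 9 were lower, or 8 with the floor (median -1.92), with Cxcr4 at -3.61, Itgal at -2.73 and Ccr6 at least 4.69-fold lower. In oviduct the signalling list of T cells, the transcription factors and the homing receptors had 0 members past 2-fold in either direction. Among all genes that passed the filter in oviduct 2.74% were lower and 0.801% higher, so 0 in lists of this length is near the share over all genes. Of the T cell signalling list only 7 of 15 passed that filter.

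Genes of organised lymphoid tissue and of neighbouring organs were read beside the members. Cxcl13, the chemokine of B cell follicles, read 11.76 and 7.62 in trachea and 7.30 and 7.76 in oviduct. Ccl19, a ligand of Ccr7, read 10.97 and 7.57 in trachea and 7.35 and 7.74 in oviduct. Glycam1, a mucin of the high endothelial venules of lymph nodes, read 10.79 and 5.84 in trachea and 5.42 and 5.54 in oviduct, a difference of -4.95. The rest of its list was nearer to 0, with Madcam1 at -0.99 and Fcamr at -0.63, so that 1 of 6 was past 2-fold (median -0.52). Of the lymphoid chemokines and cytokines 4 of 7 were past 2-fold and lower (median -1.09), among them Tnfsf13b (Baff), at least 2.64-fold lower. In the thymus list 2 of 11 were lower on the measured levels and 1 with the floor (median -0.06). Cd1d1 was at -1.65, and Themis had a bound of 1.86-fold. Dntt lay below background on both trachea arrays, and Ptcra was at 7.49 and 7.42. Arpp21 and Foxn1, the regulator of thymic epithelium, were at 0.97 and 0.92. In the germinal centre list 0 of 6 were past 2-fold (median -0.18), with Basp1 at -0.80, Gcsam at -0.47 and Fas at 0.23. The thyroid list had 0 of 4 (median 0.05), with Slc5a5 at 0.26. Of all genes that passed the filter in trachea 7.7% were lower, so counts of 0 or 1 in such short lists are near that share. Summed over each list, the log2 signal of the lymphoid chemokines was 12.62 and 9.69 in trachea and 9.69 and 9.93 in oviduct, and that of the lymph node list 11.41 and 9.68 in trachea and 9.45 and 9.52 in oviduct. The part of lymph node tissue in the members' values was not tested.

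Leukocyte genes outside the lymphocyte lists are given list by list. Genes of all leukocytes were at least 2-fold lower in trachea in 11 of 12 (median -2.38), with Rac2 at -3.41, Dock2 at -3.36 and Cd53 at -3.06. Other NK genes were lower in 5 of 14 on the measured levels and 3 with the floor (median -0.88, or -0.29 with the floor). Ccl5 was at -3.92 and Il2rb at -2.56, genes that T cells also express, and Klrd1 had a bound of 1.56-fold. The NK receptor Ncr1 read 5.99 and 5.12 in trachea, and Klrb1c lay below background on both arrays. Dendritic cell genes were lower in 4 of 8 (median -1.15), with Flt3 at -2.17, Siglech at -1.80 and Clec9a at least 3.85-fold lower. Macrophage and monocyte genes were past 2-fold and lower in 1 of 12, Lyz2 at -2.11, and below WT by any amount in 7 of 12 (median -0.28). Cd68 was at -0.94, C1qb at -0.65 and C1qa at -0.30, whereas Mrc1 was at 0.19 and Adgre1 at 0.44. Plasma cell genes were lower in 3 of 8 on the measured levels and 2 with the floor (median -0.33), with Irf4 at -1.74 and Mzb1 at -1.65, while Jchain had a bound of 1.68-fold. Neutrophil genes were lower in 2 of 8 and higher in 1 (median -0.41). Those lower were the receptor Cxcr2 at -1.25 and Ltf at -4.40, and the higher was S100a9 at 2.19; epithelium can make the last pair too. In the mast cell list 1 of 7 was past 2-fold on the measured levels, Cpa3, which lay below background on both arrays, and 0 with the floor (median -0.30). Tpsb2 was at -0.59 and Kit at -0.30, and Mcpt4 had a bound of 1.34-fold. Endothelial genes were lower in 1 of 7 (median -0.60), with Pecam1 at -1.88, Cdh5 at -0.68 and the lymphatic gene Lyve1 at 0.77. The 2 measured erythrocyte genes, Alas2 and Slc4a1, were at -0.29 and -0.05. Beside these counts, 7.7% of all genes that passed the filter in trachea were at least 2-fold lower. Counts of 0 or 1 in lists of this length are near that share. These lists are unequal in length and in background, so their medians are set side by side without a test of the difference.

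**Figure D3:**
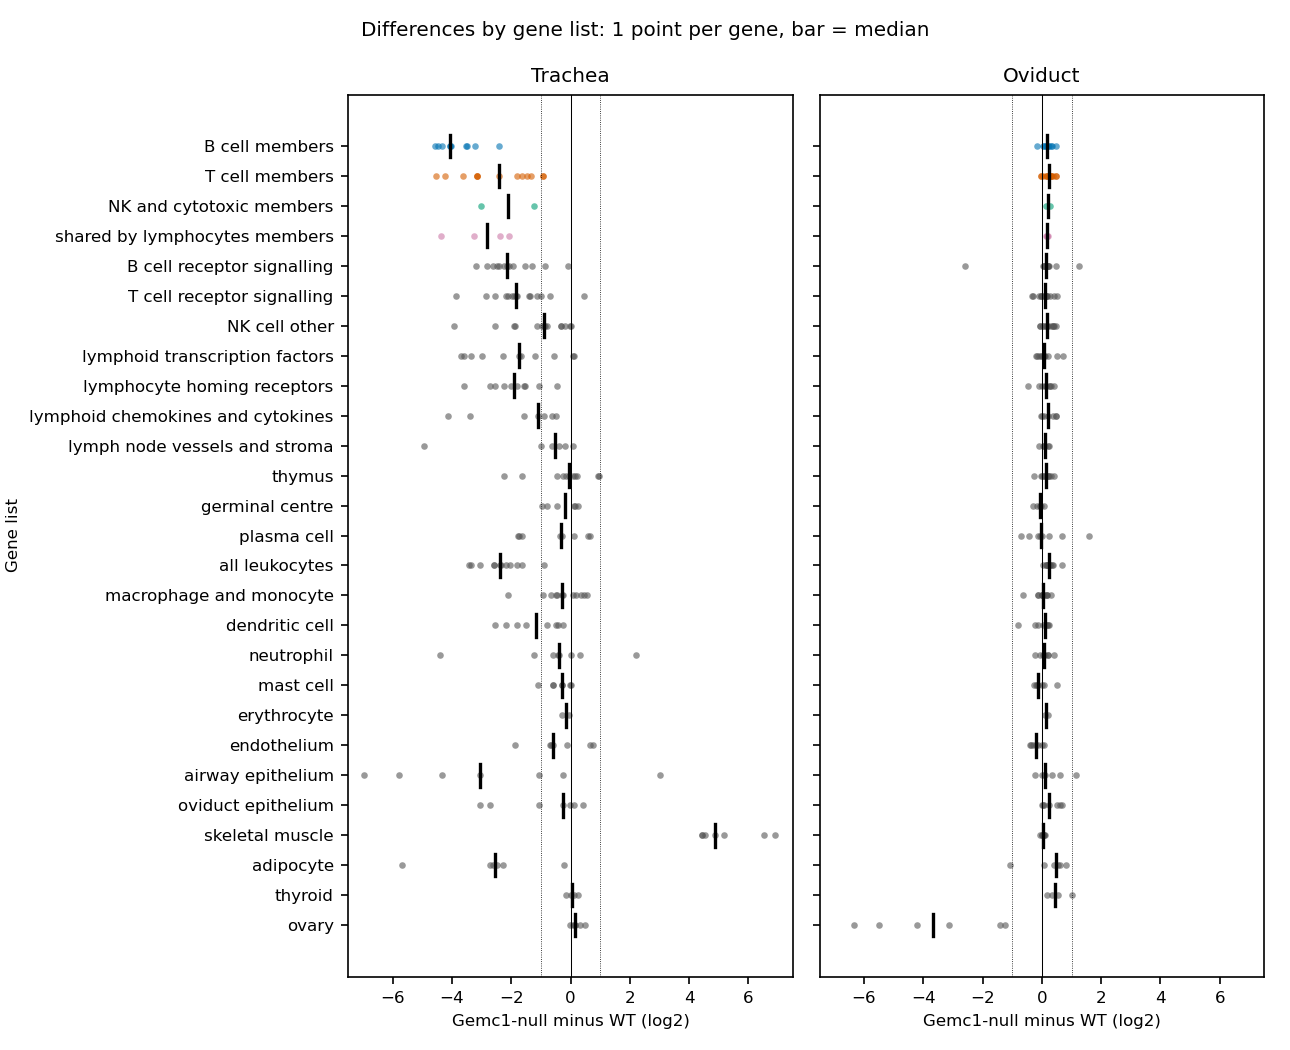
Differences (labelled Gemc1-null minus WT, log2) in trachea (left) and oviduct (right), 1 point per measured gene and a black bar for each list's median; the 4 member classes are coloured and other lists are grey. In trachea the lymphocyte and general leukocyte lists lie left of 0, the macrophage median is -0.28 and skeletal muscle lies to the right (median 4.88); in oviduct the ovary list (median -3.68) lies apart.

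Markers of non-immune tissue also differed between the same trachea arrays. Summed over its 7 measured genes, the skeletal muscle list had a log2 signal of 10.15 in the WT tissue, against 15.18 on the null-labelled array, with 7 of 7 genes at least 2-fold higher, among them Myh1, Atp2a1 and Myh4. The airway epithelium list summed to 14.97 and 12.92, with 5 of 7 lower, among them Scgb3a1 at -5.79, and 1 higher, Krt5. The adipocyte list summed to 12.32 and 9.45, with 5 of 6 lower, among them Cidea at -2.71, Fabp4 at -2.63 and the brown fat gene Ucp1, at least 25.2-fold lower. In the oviduct epithelium list 3 of 7 were lower in trachea (median -0.25), Krt8 at -3.04, Muc16 at -2.71 and Epcam at -1.07. Krt8, Epcam and Cdh1 are in both epithelium lists, so Krt8 and Epcam are also counted among the lower airway genes. On the same scale the 29 lymphocyte genes summed to 14.26 and 11.15, and to 10.98 and 11.18 on the WT oviduct array and the null-labelled oviduct array. In oviduct the ovary list was lower in 6 of 6 genes (13.56 and 9.18), Cyp11a1, Hsd3b1 and Inha by the most. There 0 of 29 lymphocyte genes were past 2-fold, which is near the share over all genes. In trachea 0 of the 6 ovary genes were past 2-fold, with Amh at 0.48, Inha at 0.32 and Star at 0.09. The part of these differences in tissue make-up in the lymphocyte values was not tested.

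Likeness of other genes' profiles to those of the members was the Euclidean distance over the 4 arrays between a gene's log2 signals, each less the gene's own mean, and the mean profile of the B or the T cell members. With only 4 arrays, 1 of which stands far above the rest, this finds genes with a like height on that array and says nothing of shared control. Nearest to the B cell profile were Gimap3 (distance 0.13), Gprc5a (0.19), a receptor of lung and airway epithelium, Spib (0.19), a transcription factor of B cells, Ccl19-ps1 (0.25), Ifi209, Apol7c, Gm21104, Ccl5, Fcmr, an Fc receptor for IgM, and Igkj3, a joining segment of the kappa light chain (0.32). Ccl19-ps1 is a near copy of Ccl19 and cannot be read apart from it. Nearest to the T cell profile were Ccr6 (0.06), the copper transporter Atp7b (0.08), Gm8221, Bin2, Gimap5, Il2rb, the interleukin 2 receptor beta chain, Dusp2, Sla, Il27ra and Vav1 (0.16). The members' own median distance from their class mean was 0.43 for B cells and 0.83 for T cells, so the nearest outside genes lay closer to each mean than most members did.

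**Figure D4:**
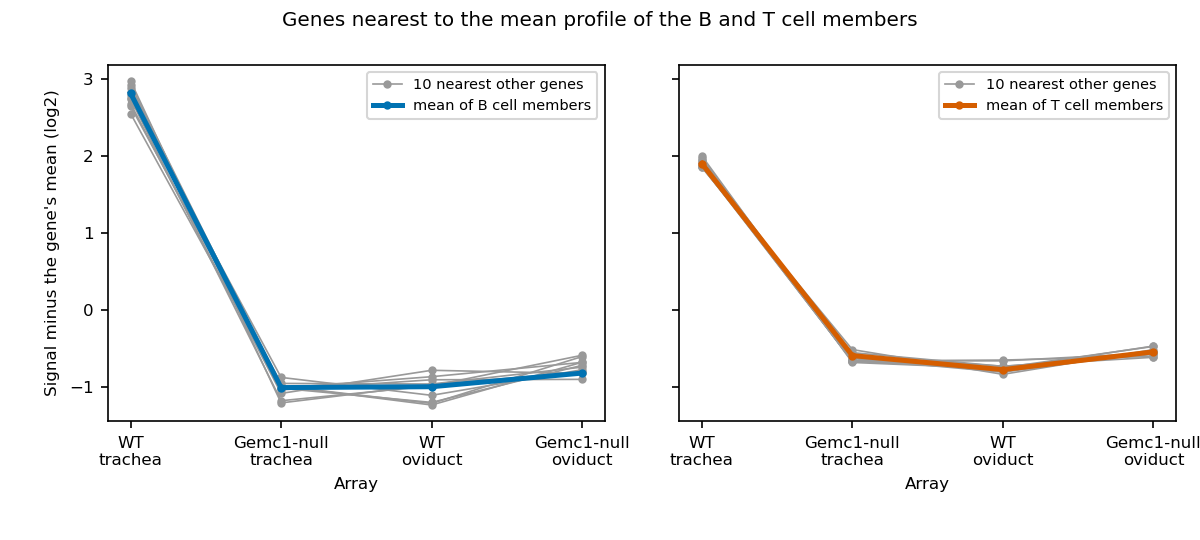
Signal minus each gene's own mean (log2, y axis) on the 4 arrays (x axis) for the mean of the B cell members (left, blue) and of the T cell members (right, orange) with the 10 nearest other genes in grey. Each line is high on the WT trachea array and varies far less over the other 3 arrays. It is not always flat there: the signal of Fcmr ran from 5.76 in WT oviduct to 6.37 in null-labelled oviduct.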

How the data were processed

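Total RNA of 4 samples, from trachea and oviduct, was hybridised to 1-colour Affymetrix arrays. RMA is the tool named per the submitters' processing notes, with version, settings and build not given in the sources used here. Raising 2 to each deposited value gave 6 significant digits or fewer in 100% of cells (relative tolerance 1e-09), so the authors' log2 values appear to have been logged again, and the log2 signal used here undoes that step. Of 65956 transcript clusters 31089 had 1 gene in the platform annotation, with symbols updated through a RefSeq table of GRCm38.p6, 1661 had several or were unresolved, and 33206 were not listed. For the 427 genes with several probe sets, that with the highest mean was used. Genes were named by a rule: all members, per other list the 3 largest trachea differences that passed the filter, and the 10 genes nearest in profile to each class. Defining markers of other tissues and cell types, and exceptions or genes that lost a call (Fyn, Prkcq, Ebf1, Bcl6, Bcl11b, Blnk, Vpreb3, Trat1, Ctla4, Cd40lg, Foxn1, Cpa3), were added, the latter after their values were seen. Members and lists were chosen with earlier results of these data known. The only test was limma 3.58.1 (R 4.3.3) on the 4 arrays. Its code was run on simulated data with the same difference planted in both tissues, which does not check it for tissues that disagree. Alternatives were other fold thresholds, filters, scalings, probe set rules and background floors.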

Additional observations from a re-analysis of the deposited data

Results flagged for a closer look

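The genotype difference, with the oviduct arrays as labelled, had opposite signs in the 2 tissues for the median of each member class, and with 1 array per group this was not tested. On measured levels the trachea median minus the oviduct median was -4.22 for B cell genes and -2.68 for T cell genes. It was -2.34 for NK and cytotoxic genes and -3.01 for genes shared by lymphocytes. With levels below the negative-control median set to it, the trachea medians by themselves were -3.47, -2.26, -1.63 and -2.83. The oviduct medians are small and rest on levels near background, and their sign rests on labels that Gmnc does not settle. Turning the oviduct labels only reverses the sign of each oviduct median, and the values become -3.88, -2.18, -1.91 and -2.65. The like signs in both tissues then follow by arithmetic and are no check of the labels. Among genes of the other lists, 3 were past 2-fold in opposite directions on the measured levels, again untested and with signs in oviduct that rest on the same labels. They were the adaptor Blnk (trachea difference minus oviduct difference -3.20), Jchain, the joining chain of secreted IgA and IgM (-3.35), and the secretoglobin Scgb3a1 (-6.96). Jchain lay below background on the null-labelled trachea array, and its bound in trachea, 1.68-fold, is short of 2-fold.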

How the results depend on the processing

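Of 261 values recomputed under other settings, 258 moved by under 1.5-fold, and no median past 2-fold changed sign. Many of them could not move by more, so the count is no measure of robustness. Medians were taken over all measured genes, so fold thresholds and level filters left them as they were. Centring on the negative controls moved each difference by at most 0.24, short of 1.5-fold. Medians near 0 changed sign in 7 cases. Centring on the negative controls gave 0.18 for the thymus list, 0.06 for germinal centre and 0.07 for erythrocyte in trachea. The floor at the negative-control median gave -0.17 for thyroid and -0.11 for ovary in trachea and 0.02 for mast cells in oviduct. These floored values rest wholly or in part on the gap between the negative-control medians of the compared arrays. A gene below background on both arrays takes that gap. Quantile normalization gave 0.0046 for the T cell members between the null-labelled arrays, beside -0.07. The 3 values that moved by more were the median of the other NK genes in trachea (-0.88, or -0.29 with signals below the negative-control median set to it), and the members past the threshold between the null-labelled arrays: 1 lower in trachea at 1.5-fold, beside 0 at 2-fold, and 0 higher at 3-fold, beside 1. Members lower in trachea numbered 24 at 3-fold and 29 at 1.5-fold, beside 27 at 2-fold. The median of the measured members, which fold thresholds cannot move, stayed between -3.17 and -2.93. Over all genes, trachea had 1545 lower at 2-fold, 2667 at 1.5-fold and 861 at 3-fold. Oviduct had 538, 1025 and 266 lower and 157, 551 and 35 higher. WT trachea was above WT oviduct in 1295, 2344 and 651 genes, and the null-labelled trachea array above the oviduct one in 1364, 2692 and 685 and below it in 1216, 2563 and 538. limma called 0 genes also without the tissue block, with an intensity trend and with no level filter, and at an unadjusted p under 0.05 it had 443 lower and 110 higher, 590 and 175, and 695 and 360. No paired analysis was possible because each group has 1 array and the labels give no replicate numbers. For the same reason no array could be left out, and all trachea values rest on the WT trachea array. Signal near background limits every difference whose dimmer array lies below the negative-control median.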
